A study of Homo sapiens with 6 samples.

Results

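The genes described here are the interferon-induced genes IFI6, IFI27, IFI30, IFI35, IFI44 and IFI44L and the IFI27 paralogues IFI27L1 and IFI27L2. They were chosen by their symbols, with earlier results of these data known. Of these 8 genes, 7 had a row in both deposited tables, which list 29845 genes with read counts and 29656 genes with FPKM, a level scaled to transcript length and library depth. All 7 were among the 16555 genes with enough reads to be tested. IFI30 was not analysed here.

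Type I interferon binds the receptor of IFNAR1 and IFNAR2, whose kinases JAK1 and TYK2 phosphorylate transcription factors of the STAT family. With IRF9 these form a complex that binds a short DNA element, the interferon-stimulated response element (ISRE), in front of target genes. IFI6, IFI27, IFI27L1 and IFI27L2 encode related small hydrophobic proteins, and IFI6 and IFI27 are well-known targets of this pathway. IFI44 and IFI44L are paralogues that lie side by side, IFI35 encodes a leucine zipper protein that binds NMI, and IFI30 encodes a thiol reductase of the lysosome that serves antigen presentation.

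The RNA came from the cell line A549, which was established from a human lung carcinoma and is epithelial. Cells of both groups were transfected with a plasmid by Lipofectamine and harvested 48 h later, per the study's methods. The 3 control libraries came from cells that received the empty pIRES-hrGFP-1a vector, and the 3 TFAM-OE libraries from cells that received the same vector carrying human TFAM, the mitochondrial transcription factor A, fused to a FLAG tag. The transfection was transient, and no untransfected cells were analysed here. The study describes the 3 libraries of a group as biological replicates, but the labels do not name separate cultures, so a p-value measures the spread between these libraries only.

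The deposited counts summed to between 26650854 and 37321956 reads per library, of which the top 10 genes held 7.51% to 8.52%. TFAM itself had 76.0, 70.1 and 72.6 CPM (reads scaled to library size by the TMM method) in control replicates 1, 2 and 3. It had 71.8, 77.2 and 83.0 CPM in TFAM-OE replicates 1, 2 and 3. The groups overlapped, with a log2 fold change of 0.08 and an interval of -0.13 to 0.30 (adjusted p = 0.623, edgeR quasi-likelihood test), and reads of the plasmid and of the chromosomal gene were not separated. The study followed the tagged protein on a blot with an antibody to FLAG, which these counts do not measure. No rise of TFAM mRNA beyond the spread was seen, and these libraries are called the libraries labelled TFAM-OE throughout. The summed level of 7 epithelial markers ran from 5670 to 6320 CPM in the control and from 5300 to 6800 CPM in the libraries labelled TFAM-OE. KRT7, KRT8 and KRT18 made up most of it. EPCAM was low, at 0.455 CPM on average in the control and 0.834 CPM in the other group. So were CLDN4, at 1.84 and 1.92 CPM, and CDH1, at 4.37 and 5.40 CPM.

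The stretch of 250 bases before the transcription start site is shown for 6 of the genes, since 4 of the 5 genes that fell hold the core of the ISRE there, while the fifth, IFI35, and the genes that were not called do not. All 8 genes had an entry in the RefSeq promoter table of GRCh38.p14, and each sequence is given 5′ to 3′ along the strand of its gene. The ISRE core was searched on both strands as GAAANNGAAA, and its matches are in capitals in IFI6 (minus strand of chr1:27672193-27672442), IFI27 (plus strand of chr14:94110486-94110735), IFI44L (plus strand of chr1:78620198-78620447) and IFI44 (plus strand of chr1:78649539-78649788).

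IFI6: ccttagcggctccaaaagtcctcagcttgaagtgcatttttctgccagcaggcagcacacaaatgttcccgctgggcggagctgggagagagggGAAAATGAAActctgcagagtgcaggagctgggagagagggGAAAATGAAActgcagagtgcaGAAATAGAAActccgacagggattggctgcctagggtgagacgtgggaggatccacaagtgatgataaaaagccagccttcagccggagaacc
IFI27: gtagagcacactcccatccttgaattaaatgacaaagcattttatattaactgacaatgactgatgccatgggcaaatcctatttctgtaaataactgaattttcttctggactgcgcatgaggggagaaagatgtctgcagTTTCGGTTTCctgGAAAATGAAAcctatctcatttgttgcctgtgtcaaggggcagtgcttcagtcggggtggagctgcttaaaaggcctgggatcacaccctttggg
IFI44L: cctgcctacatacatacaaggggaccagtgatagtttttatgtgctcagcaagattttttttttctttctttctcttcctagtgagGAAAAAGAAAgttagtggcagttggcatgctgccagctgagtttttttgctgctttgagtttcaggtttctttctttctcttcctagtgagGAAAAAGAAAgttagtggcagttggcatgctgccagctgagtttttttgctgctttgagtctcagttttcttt
IFI44: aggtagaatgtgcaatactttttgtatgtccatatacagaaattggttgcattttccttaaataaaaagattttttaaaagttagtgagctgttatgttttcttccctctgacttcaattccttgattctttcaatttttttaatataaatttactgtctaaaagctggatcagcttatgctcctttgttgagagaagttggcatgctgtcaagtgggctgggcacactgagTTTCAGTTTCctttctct

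In IFI35 (plus strand of chr17:43006534-43006783) the capitals mark a gamma-activated site, searched as TTCNNNGAA, that runs into a pair of GAAA words with 1 base between them, GAAANGAAA. In IFI27L1 (plus strand of chr14:94081060-94081309) they mark the box GGGCGG of the factor SP1, on either strand. The same box is not marked in IFI6, which holds it at -177, or in IFI35, which holds it at -53. The windows of IFI27L2 and IFI30 hold it too, so it does not set apart the genes that fell.

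IFI35: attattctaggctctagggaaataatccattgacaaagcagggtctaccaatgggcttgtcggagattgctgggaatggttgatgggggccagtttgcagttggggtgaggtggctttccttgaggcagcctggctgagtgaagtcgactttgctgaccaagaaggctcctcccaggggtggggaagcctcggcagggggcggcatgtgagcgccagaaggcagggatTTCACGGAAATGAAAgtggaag
IFI27L1: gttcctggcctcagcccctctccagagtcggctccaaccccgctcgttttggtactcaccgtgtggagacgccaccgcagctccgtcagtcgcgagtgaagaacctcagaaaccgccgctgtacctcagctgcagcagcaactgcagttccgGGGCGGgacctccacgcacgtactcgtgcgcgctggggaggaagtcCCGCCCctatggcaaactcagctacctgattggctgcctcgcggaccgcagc

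The window of IFI6 held 3 ISRE cores, at -156, -115 and -93 counted from the start site. The first pair lay in a run of 29 bases that occurs 2 times, with the copies 41 bases apart. IFI44L held 2 cores in a longer repeat, 85 identical bases whose copies began at -189 and -98. IFI27 held 2 cores on opposite strands, at -108 and -95, with a gamma-activated site TTCCTGGAA that overlaps both. IFI44 held 1 core on the reverse strand, at -18, overlapping a match of the closer-spaced pair. The table lists a second start site for IFI27 and for IFI44, from which the same cores lie at -187 and -174 and at -60. The remaining members, IFI35, IFI27L1, IFI27L2 and IFI30, held no ISRE core in their windows of 300 bases, which says only that these letters are not there.

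Of 35093 windows of this length in the table, 3.58% held an ISRE core, and of the 15309 windows that belong to genes tested here 3.01% did. Among the 264 windows whose gene was called lower, 67 held one, or 25.4%. Windows and not genes are counted, so the same cores count again for the second start sites of IFI27 and IFI44. The windows of the members that fell are part of this share. The gamma-activated site was held by 6.32% of the windows of tested genes and by 10.6% of those of genes called lower, and the GAAA pair with 1 base between by 2.57% and 12.9%. The box GGGCGG was held by 65.4% and 45.5%. A match in these letters is a description of the sequence and not a measured binding site.

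Of the 7 genes, 5 fell in the libraries labelled TFAM-OE. These were IFI27, IFI44L, IFI44, IFI6 and IFI35. A gene was called lower or higher when the adjusted p of edgeR's quasi-likelihood test was below 0.05 and its fold change was at most 0.5 or at least 2. Of all genes tested, 342 or 2.07% were called lower by this rule and 74 or 0.447% were called higher. No member was called higher by edgeR or DESeq2, and at an unadjusted p below 0.05 IFI27L1 would count as 1, against 12.2% of all genes tested. By the adjusted p alone the members' counts were also 5 lower and 0 higher, against 4.81% and 3.48% of all genes tested. Every library labelled TFAM-OE lay below every control library for the same 5 genes and above for 1, and each of these patterns was found in 15.8% of all genes tested. The median log2 fold change of all genes tested was -0.0084. In bulk RNA, fewer cells that express a gene and less RNA per cell cannot be told apart.

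**Figure D1:**
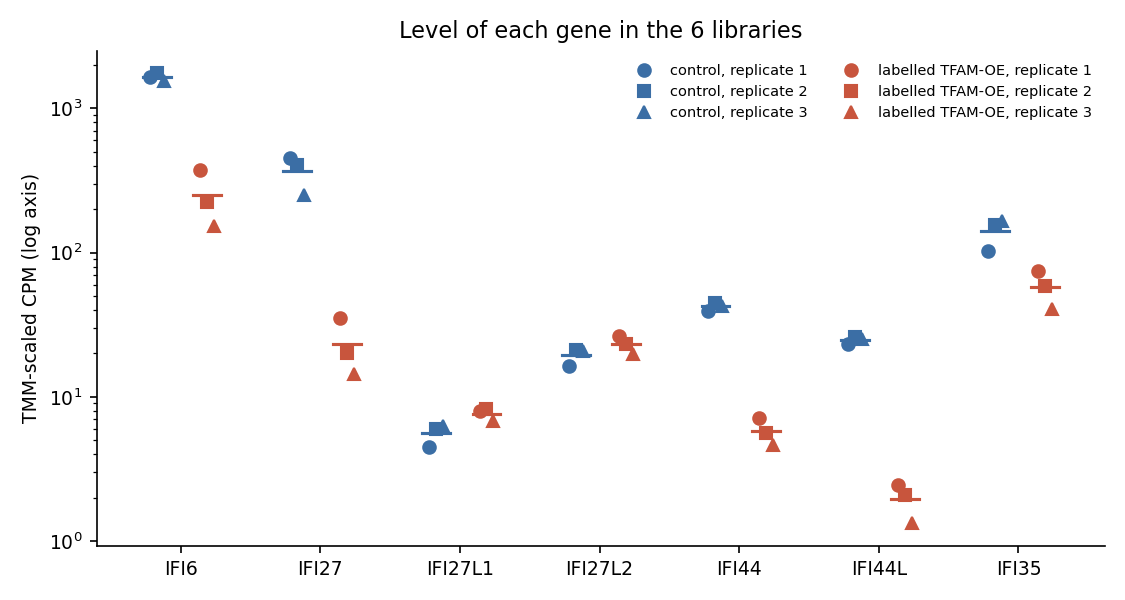
Level of each of the 7 genes in every library, as TMM-scaled CPM on a log axis, with control libraries in blue, libraries labelled TFAM-OE in red, a marker shape for each replicate number and a bar at the group mean. The red points of IFI6, IFI27, IFI44, IFI44L and IFI35 lie below all blue points of the same gene, those of IFI27L1 lie above, and those of IFI27L2 overlap.

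IFI6 encodes a small protein that inhibits apoptosis and restricts flaviviruses. It was the most abundant of the 7 genes and took 55022, 46892 and 56696 reads in control replicates 1, 2 and 3. In the libraries labelled TFAM-OE it took 11933, 8134 and 4571 reads. These reads correspond to 1645 ± 102 CPM in the control and 249.98 ± 113 CPM in the other group (SD, n = 3 each), with no overlap. The log2 fold change was -2.72 (SE 0.27, 95% interval -3.32 to -2.11, adjusted p = 0.000389, edgeR quasi-likelihood test). Ranked by FPKM among the 29656 listed genes, IFI6 stood at places 19, 22 and 35 in the control libraries and at 162, 235 and 300 in those labelled TFAM-OE. The gene (ENSG00000126709.14) lies on the minus strand of chr1:27666064-27672212 in GRCh38, and its 3′ end overlaps an exon of LINC02574 on the same strand, which held between 0 and 9 reads per library.

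IFI27 encodes a mitochondrial and nuclear envelope protein that is among the genes most responsive to type I interferon. It had 452, 403 and 252 CPM in control replicates 1, 2 and 3, from 15202, 10806 and 9255 reads. The libraries labelled TFAM-OE had 35.0, 20.0 and 14.5 CPM, from 1115, 728 and 435 reads. The groups were far apart although control replicate 3 lay well below the other two. With means of 369 ± 104 and 23.2 ± 10.6 CPM (SD, n = 3 each), the log2 fold change was -3.995 (SE 0.33, 95% interval -4.73 to -3.26, adjusted p = 0.000113, edgeR quasi-likelihood test). Among the 16555 genes tested this was the 4th lowest log2 fold change, and IFI44L had the 8th lowest, IFI44 the 28th and IFI6 the 34th.

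IFI27L1 and IFI27L2 are the neighbours and paralogues of IFI27, less studied than IFI27 itself. On the plus strand of chromosome 14, IFI27L1 (ENSG00000165948.10, chr14:94081301-94103846) ends 989 bases before IFI27 (ENSG00000165949.12, chr14:94104836-94116695). IFI27L2 (ENSG00000119632.3, chr14:94127779-94130253) lies 11083 bases further on and on the minus strand. IFI27L1 had 4.46, 6.01 and 6.27 CPM in control replicates 1, 2 and 3 and 7.96, 8.19 and 6.83 CPM in TFAM-OE replicates 1, 2 and 3. All libraries labelled TFAM-OE lay above the control, by a log2 fold change of 0.46 (SE 0.17, 95% interval 0.08 to 0.83) that missed the threshold (adjusted p = 0.121, edgeR quasi-likelihood test). The counts behind these levels were low, between 150 and 298 reads.

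IFI27L2 had 16.4, 21.2 and 20.8 CPM in the control and 26.5, 23.1 and 19.7 CPM in the libraries labelled TFAM-OE. The groups overlapped, with a log2 fold change of 0.25 (SE 0.15, 95% interval -0.08 to 0.58, adjusted p = 0.325, edgeR quasi-likelihood test). A rise of 0.83 for IFI27L1 and of 0.58 for IFI27L2 is the most that these intervals hold.

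A ratio of 2 genes within a library does not depend on how libraries are scaled. The log2 ratio of IFI27 to IFI27L1 was 6.66, 6.07 and 5.33 in the control libraries and 2.13, 1.29 and 1.09 in those labelled TFAM-OE. The ratio thus differed 22.9-fold between the group means, by -4.52 on the log2 scale, with no overlap (exact permutation test, two-sided, p = 0.1, the smallest that 3 against 3 allows, and 0.16 after adjustment over 8 pairs of genes). The log2 ratio of IFI27 to IFI27L2 went from 4.79, 4.25 and 3.60 to 0.40, -0.21 and -0.45, so that in 2 of the 3 libraries labelled TFAM-OE the paralogue had the higher CPM. The ratio of IFI27L1 to IFI27L2 differed by only 0.22 on the log2 scale, and its groups overlapped (exact permutation test, p = 0.2). The log2 ratio of IFI27 to IFI6, its relative on chromosome 1, was -1.86, -2.12 and -2.61 in the control, against -3.42, -3.48 and -3.39 in the libraries labelled TFAM-OE, a difference of -1.24 without overlap (exact permutation test, p = 0.1).

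IFI44 and IFI44L encode related proteins that are strongly induced by interferon, and both have been linked to feedback on antiviral responses. They lie 3650 bases apart on the plus strand of chromosome 1, IFI44L (ENSG00000137959.15) at chr1:78619902-78646145 and IFI44 (ENSG00000137965.10) at chr1:78649796-78664078. IFI44 had 39.5, 45.0 and 42.6 CPM in control replicates 1, 2 and 3 and 7.18, 5.58 and 4.63 CPM in TFAM-OE replicates 1, 2 and 3. The control libraries lay close together and far above the others. The log2 fold change was -2.87 (SE 0.16, 95% interval -3.23 to -2.50, adjusted p = 1.78e-05, edgeR quasi-likelihood test).

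IFI44L had 23.3, 25.9 and 25.2 CPM in the control and 2.45, 2.09 and 1.33 CPM in the libraries labelled TFAM-OE. The latter rest on 78, 76 and 40 reads. The 2 groups did not overlap, and the log2 fold change was -3.66 (SE 0.20, 95% interval -4.10 to -3.21, adjusted p = 1.76e-05, edgeR quasi-likelihood test). In each control library IFI44 had between 0.76 and 0.80 log2 units more CPM than IFI44L, and in the other group between 1.42 and 1.80. The difference of 0.82 between the means had no overlap (exact permutation test, p = 0.1), and it was 0.44 when the ratio was taken from FPKM with 0.1 added. For IFI27 and IFI44L, the genes with the lowest fold changes of the 7, the log2 ratio differed by -0.34 with overlapping groups (exact permutation test, p = 0.3). With 1 library left out this value ranged from -0.13 without control replicate 1 to -0.61 without control replicate 3, and it was -0.75 from FPKM with 0.1 added.

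IFI35 (ENSG00000068079.7, plus strand of chr17:43006740-43014456) fell least of the 5. It had 103, 156 and 165 CPM in control replicates 1, 2 and 3 and 74.1, 58.6 and 41.0 CPM in TFAM-OE replicates 1, 2 and 3. The groups did not overlap, although control replicate 1 lay well below the other two control libraries. The log2 fold change was -1.29 (SE 0.22, 95% interval -1.78 to -0.79, adjusted p = 0.00908, edgeR quasi-likelihood test), and the call was lost without control replicate 2 (adjusted p = 0.0613) and with the replicate number as a block (adjusted p = 0.0645). Between IFI6 and IFI35 the log2 ratio differed by -1.51 without overlap (exact permutation test, p = 0.1).

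NMI, the binding partner of IFI35, went from 42.3 ± 0.581 to 21.9 ± 1.13 CPM (SD, n = 3 each). Its log2 fold change of -0.95 passed the adjusted p (0.000583, edgeR quasi-likelihood test) but not the fold of the rule. The log2 ratio of IFI35 to NMI was 1.31, 1.87 and 1.96 in the control, against 1.69, 1.41 and 0.98 in the libraries labelled TFAM-OE, with overlap (exact permutation test, p = 0.3). The difference of -0.35 ranged from -0.55 without control replicate 1 to -0.16 without TFAM-OE replicate 3. The ubiquitin ligase TRIM21 gave -0.99 (adjusted p = 0.00236, edgeR) and also missed the fold. In the list of 7 partners and relatives 1 gene was called lower, the DNA sensor IFI16 at -2.23, against 2.07% of all genes tested. The median of the list was -0.05. The 2 highest were FKBP5 at 0.18 and SKP2, a subunit of a ubiquitin ligase, at 0.51, both below the fold of the rule.

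**Figure D2:**
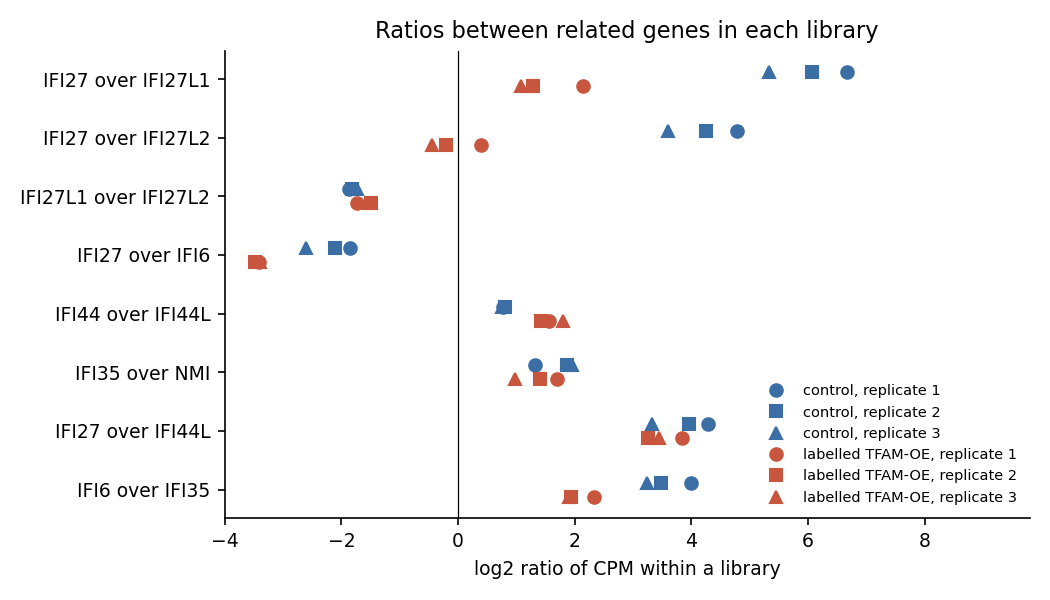
Log2 ratio of CPM between 2 related genes within each library, on a linear axis, with control libraries in blue, libraries labelled TFAM-OE in red and a marker shape for each replicate number. The ratios of IFI27 to IFI27L1 and to IFI27L2 are separated by over 3 log2 units between the groups, while those of IFI27L1 to IFI27L2, IFI35 to NMI and IFI27 to IFI44L overlap.

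Levels of different genes were compared per length, by the deposited FPKM. In the control the group means were 1625 FPKM for IFI6, 383 for IFI27, 96.5 for IFI35, 24.7 for IFI27L2, 21.4 for IFI44, 3.95 for IFI27L1 and 3.60 for IFI44L. The neighbours IFI27L2 and IFI44 overlapped in this order, as did IFI27L1 and IFI44L. In the libraries labelled TFAM-OE the means were 240 FPKM for IFI6, 38.7 for IFI35, 28.8 for IFI27L2, 23.2 for IFI27, 5.34 for IFI27L1, 2.87 for IFI44 and 0.277 for IFI44L. IFI35 overlapped IFI27L2 and IFI27 there, and IFI27L2 overlapped IFI27. By the group means IFI27 thus moved from the second place to the fourth, and IFI44 from the fifth to the sixth. In TFAM-OE replicate 1 IFI27 had 33.9 FPKM and stood above IFI27L2 with 31.7.

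**Figure D3:**
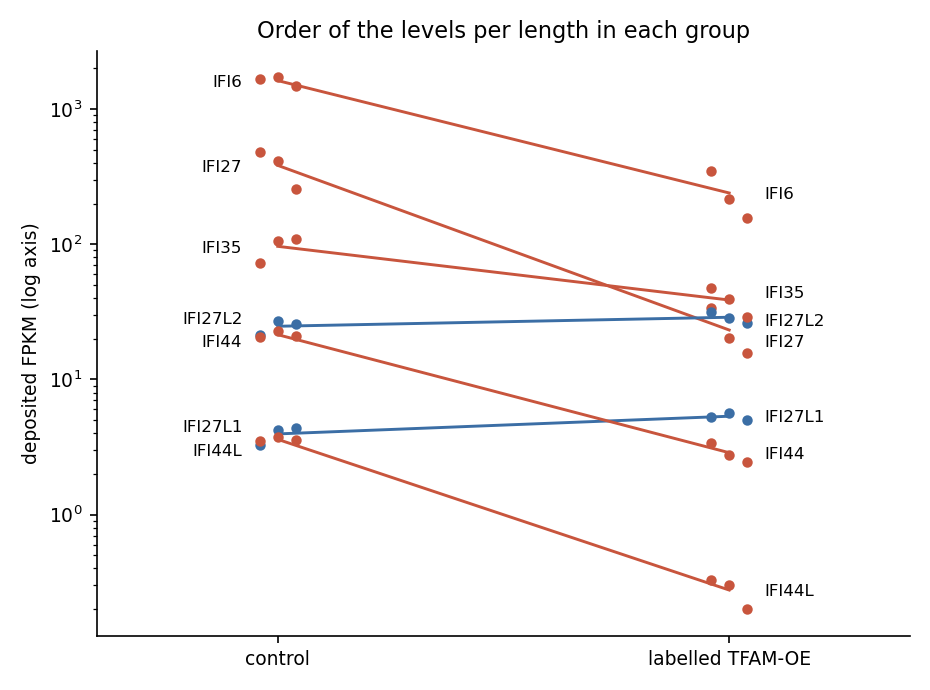
Deposited FPKM of the 7 genes on a log axis, with a point for each library and a line between the group means. Genes called lower are in red and the others in blue, and the line of IFI27 crosses those of IFI35 and IFI27L2 on its way from 383 to 23.2 FPKM.

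Together the 7 genes took 0.236%, 0.242% and 0.202% of all reads in control replicates 1, 2 and 3 and 0.0501%, 0.0336% and 0.0251% in TFAM-OE replicates 1, 2 and 3. IFI6 held between 71.9% and 75.1% of their summed CPM in the control and between 63.4% and 70.9% in the other group. The part of IFI27 was between 12.3% and 19.9% in the control and 5.87% to 6.63% in the libraries labelled TFAM-OE. IFI27L1 and IFI27L2 together made up between 0.915% and 1.32% of this sum in the control and between 6.54% and 11.1% in the other group, while neither gene was called.

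Within the libraries labelled TFAM-OE the genes had a common order. Replicate 3 was the lowest of the group for 7 of 7 genes and replicate 1 the highest for 6 of 7, in CPM and in FPKM. Over all genes tested, replicate 3 was the lowest of its group in 44.3% and replicate 1 the highest in 43.5%. In the control, replicate 1 was the lowest for 5 of 7 genes and replicate 2 the highest for 4 of 7. The shares over all genes tested were not taken for the control, so these counts are a description only. For IFI6 the coefficient of variation was 6.23% in the control, against 45.3% in the libraries labelled TFAM-OE. For IFI44 it was 6.47% and 22.2%, for IFI44L 5.46% and 29.1%, and for IFI35 23.5% and 28.6%. IFI27 had 28.2% and 45.7% and IFI27L2 13.8% and 14.7%, whereas IFI27L1 varied more in the control, with 17.5% and 9.55%. Replicate 3 also had the fewest reads of its group, 28735164, whereas replicate 2 had the most, 36958682, and the part of depth in this order was not tested.

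The genes with the most similar pattern were taken by Pearson's r of log2 CPM over the 6 libraries. This r holds both the step between the groups and the deviations within them. For IFI27L2 the groups overlapped, so no clear step was there to describe. On deviations from the group means alone, r ranged from 0.874 (IFI44L with DDX58) to 0.9987 (IFI27L2 with ADAM15). These genes were picked by an r that already holds the same deviations, so these values are no separate evidence of likeness. For IFI6 the most similar genes were ID4, CSNK1D and PML (r over the 6 libraries between 0.9990 and 0.9995). For IFI27 they were BST2, HLA-C and HLA-B, for IFI44 HLA-F, NMI and LAP3, for IFI44L NMI, DDX58 and HLA-F, and for IFI35 MTHFSD, MYD88 and TYMP. IFI27L1 was most like DPM3, AC079135.1 and FUZ, and IFI27L2 most like GPR137, ADAM15 and FAM69B, of which none was called. Among the genes most like the members that fell, ID4 (log2 fold change -0.98), CSNK1D (-0.49) and NMI (-0.95) were not called. MTHFSD (-0.39), MYD88 (-0.71) and TYMP (-0.97), the genes most like IFI35, were not called either. PML, HLA-C, HLA-B, HLA-F, LAP3, DDX58 and BST2 were called lower. BST2, the tetherin that holds virus particles at the cell surface, fell from 25.7 to 2.49 CPM (log2 fold change -3.36), and HLA-B, a class I antigen-presenting molecule, from 359 to 71.1 CPM (-2.34).

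Genes next to the members on the chromosome were compared in the same way. For each gene the 2 nearest protein-coding genes on either side were taken that are no members and had at least 10 reads in a library, which gave 16 different genes, all tested. Of these, 1 was called, SERPINA6, which rose from 0.236 to 1.15 CPM (log2 fold change 2.27, adjusted p = 0.00334, edgeR). Over all genes tested, 0.447% were called higher and 2.07% lower. The log2 fold changes of the 16 ran from -0.68 (DNAJB4) to 2.27, with a median of -0.03.

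DDX24, an RNA helicase gene that starts 99 bases from IFI27L1 on the other strand, had 162 ± 1.97 and 163 ± 7.76 CPM (SD, n = 3 each). The difference was 0.01 on the log2 scale. VAT1, which ends 151 bases from IFI35, went the other way from it, with 255 ± 18.3 and 367 ± 40.7 CPM and a log2 fold change of 0.53 (adjusted p = 0.0200, edgeR quasi-likelihood test), below the fold of the rule. RPL27, the ribosomal protein gene on the other side of IFI35, gave -0.04. Around IFI6 the range was -0.13 to 0.38 for WASF2, AHDC1, FAM76A and STX12. The nearest such gene to IFI44L and IFI44 lay 602 kb away, DNAJB4, a heat shock cochaperone that went from 33.7 to 21.1 CPM (log2 fold change -0.68, adjusted p = 0.0197, edgeR) without reaching the fold of the rule.

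**Figure D4:**
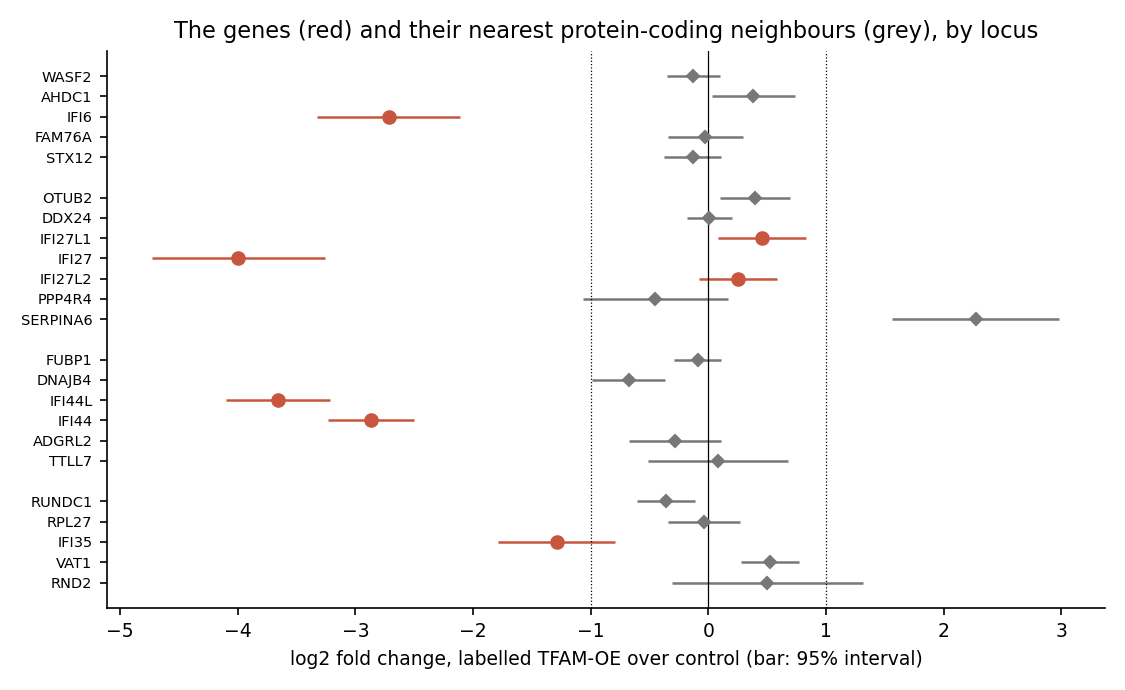
Log2 fold change, libraries labelled TFAM-OE over control, with its 95% interval, for the 7 genes (red circles) and the nearest protein-coding genes (grey diamonds) in chromosomal order within 4 loci, with dotted lines at a fold of 2 in either direction. IFI27 at -3.995 lies between IFI27L1 at 0.46 and IFI27L2 at 0.25, and of the grey genes SERPINA6 lies beyond a dotted line.

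Of 14 genes of type I interferon signalling 13 were tested, and 5 were called lower and 1 higher, with a median log2 fold change of -0.32. The receptor chains IFNAR1 (-0.23) and IFNAR2 (-0.11) and the kinases JAK1 (-0.0023) and TYK2 (0.37) were not called. The transcription factors IRF7 (-1.93) and STAT2 (-1.02) fell, as did the feedback genes USP18 and SOCS1, which are themselves induced by interferon. PTPN6, the tyrosine phosphatase SHP-1, rose by 1.01 (adjusted p = 0.00178, edgeR). IRF9 had between 0 and 5 reads per library and was not tested. How reads of overlapping genes were counted is not known here, so this count is not read as the level of IRF9.

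Of 34 other interferon-stimulated genes, 34 were called lower, against 2.07% of all genes tested. The median of the 34 was -2.24. They are known targets listed with earlier results of these data in view, so the count is a description and no independent evidence of their direction. They ran from RSAD2, the antiviral enzyme viperin (-3.78), and XAF1, a proapoptotic protein (-3.59), to IFIT5 (-1.27) and the membrane protein IFITM2 (-1.20). The log2 fold change of IFI27 was below all 34 of these, that of IFI35 lay beside IFIT5 and IFITM2, and those of IFI27L1 and IFI27L2 lay above all 34. No difference between these genes was tested.

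For the lysosomal and class II antigen presentation genes, the setting of IFI30, 13 of 20 listed genes were tested. By edgeR and by DESeq2 0 of them were called, and at an unadjusted p below 0.05 5 were lower and 2 higher, against 13.2% and 12.2% of all genes tested. CTSS, the protease that trims the class II invariant chain, gave -0.94 (adjusted p = 0.00771, edgeR), below the fold of the rule. CD74, that invariant chain, went from 0.588 to 0.212 CPM with -1.48 and missed the adjusted p (0.106, edgeR). HLA-DMA (0.35) and HLA-DMB (1.03) were highest and were not called, and CIITA, the master regulator of class II genes, gave -0.00033.

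Markers of other cell types were low in both groups. The summed level of the blood and immune markers was 6.95 to 8.92 CPM in the control and 4.06 to 5.94 CPM in the libraries labelled TFAM-OE. Of these 7 markers 3 were tested, and CD68 was called lower (-1.21), against 2.07% of all genes tested. The leukocyte marker PTPRC had 0 reads in all control libraries and at most 1 in the others. Fibroblast markers summed to between 12.9 and 15.1 CPM and between 15.9 and 18.9 CPM, of which 2 were tested. THY1 gave 0.59 (adjusted p = 0.0415, edgeR), from 9.18 to 13.8 CPM, above the epithelial markers CDH1, CLDN4 and EPCAM in both groups. COL1A1 gave -0.37, from 4.47 to 3.46 CPM. Neither gene was called. PDGFRB had 6 to 15 reads in the control and 1 to 4 in the other group, and DCN had 0 or 1 read in every library. Endothelial markers summed to at most 0.506 CPM. The part of other cell types in the differences of the 5 genes that fell was not tested.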

How the data were processed

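RNA of 3 control and 3 TFAM-OE libraries, grouped by their labels, was analysed from 2 deposited tables. The authors trimmed reads with the FASTX-Toolkit (0.0.13), dropped those under 16 nt, aligned them to GRCh38 with TopHat2 allowing 4 mismatches, and deposited a raw count of uniquely mapped reads per gene and library. The authors also deposited an FPKM value for every gene. For the counting program, the annotation and the strand setting, the entry is: not given in the sources used here.

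Genes kept by filterByExpr were tested in R (4.3.3) with edgeR (4.0.16), quasi-likelihood test, TMM scaling, two-sided, Benjamini-Hochberg adjustment over all 16555 genes. Counts carry no molecular identifiers, so depth limits counting error only. Ratios within a library were taken from CPM and compared by an exact permutation test in scipy (1.17.1). Likeness of genes was measured on log2(CPM + 0.5). Positions and neighbours came from GENCODE 44 and promoter windows, 250 bases before to 50 after each start, from RefSeq. Genes named are the 8 members, TFAM, 2 neighbours per side, the 3 most alike genes of each member, and the 2 lowest and 2 highest of each of 8 gene lists. Others were named after their values were seen, and 1 gene that the rule names is not reported here. The members and lists were chosen with earlier results of these data known, and the GAAA pair with 1 base between was added after the windows were read. The fit was first tested on simulated data in which 200 genes differed. Alternatives were DESeq2 (1.42.0), limma-voom and limma-trend on FPKM in limma (3.58.1), other scalings, no filter, the adjusted p alone, each library left out and the replicate number as a block.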

Additional observations from a re-analysis of the deposited data

How the results depend on the processing

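The count of the 7 genes called lower stayed at 5 and that called higher at 0 in every alternative run, except that 4 were called lower with the replicate block and without control replicate 2. Each time IFI35 was lost, with log2 fold changes of -1.30 and -1.21. The labels do not state that replicate numbers pair cultures, so the numbers were not taken as pairs. Deviations from the group means correlated by -0.303, 0.0362 and -0.358 between same-numbered libraries. Control replicate 1 and TFAM-OE replicate 3 gave 0.337, and control replicate 3 and TFAM-OE replicate 1 gave 0.339. With 3 libraries per group these values cannot show whether cultures were paired. The replicate block gave 217 genes lower and 38 higher over all genes, against 342 and 74. No member changed direction. IFI27 ranged from -4.41 to -3.74, IFI6 from -3.13 to -2.45, IFI44 from -3.05 to -2.54, IFI44L from -3.83 to -1.85 (limma-trend on log2(FPKM + 1), which understates low genes) and IFI35 from -1.503 to -1.09. The adjusted p of IFI27L1 lay between 0.0428 and 0.349, the lowest without TFAM-OE replicate 3, where the fold stayed under 2.

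Over all genes, 528 were called lower and 129 higher with every gene that had a read, and 796 and 576 by the adjusted p alone. Limma-trend on log2(FPKM + 0.1) gave 205 and 31, and with 1 added 108 and 11. These FPKM fits kept genes above 1 FPKM in at least 1 library. With 0.1 added and every gene kept that was above 0 FPKM in a library, 181 were called lower and 32 higher. Leaving out 1 library at a time gave between 183 and 448 lower and between 21 and 113 higher. From FPKM with 0.1 added, the log2 ratio of IFI44 to IFI44L differed by 0.44, against 0.82 from CPM. That of IFI27 to IFI44L differed by -0.75, against -0.34 from CPM. IFI44L had only 0.33, 0.3 and 0.2 FPKM in TFAM-OE replicates 1, 2 and 3. With nothing added, mean FPKM of TFAM-OE over control was 0.134 for IFI44, 0.0768 for IFI44L and 0.0605 for IFI27. In CPM these were 0.137, 0.0789 and 0.0627. The causes of the changes between settings were not tested. Depth limits IFI44L most, with 40 reads in the lowest library.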
